A study of Caenorhabditis elegans with 6 samples.

Results

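The 6 libraries of adult Caenorhabditis elegans differed along a direction that their labels do not name, and it ran across both RNAi groups. It set the libraries tag-208 2, prx-5 2 and prx-5 3, called the first set, against tag-208 1, tag-208 3 and prx-5 1, called the second set, so that all 6 of the 6 libraries belonged to one set or the other. The sets were chosen by the FPKM values of these same libraries (fragments per length of transcript and per mapped fragments of the library, scaled by the authors), so every difference between the sets is given as a description, with no test, and none of the counts below supports the split. The word adult is the only stage that the labels give for each of the 6 libraries. Whether the sets differ in age or stage was not tested.

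All worms were wild-type Bristol N2 animals grown at 20°C and sampled as whole bodies, from which total RNA was taken. L4 larvae were fed bacteria producing double-stranded RNA on plates with 6 mM IPTG, and the adults of the following generation were harvested. The control group was fed against tag-208, which the deposited tables list as sorb-1, and the other group against prx-5, the receptor that brings enzymes into peroxisomes, so both groups carried an RNAi treatment. Each group had 3 biological replicates, per the series design, and the labels do not say whether the replicate numbers pair libraries across groups.

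The cuticle of C. elegans is a collagen matrix that the epidermis secretes anew at each larval moult, and different collagen genes are used in larvae and in adults. Patched-related and hedgehog-related proteins, lipocalin-like proteins and zona pellucida-domain proteins form and remodel the apical matrix that precedes each cuticle. In an adult hermaphrodite most RNA of the gonad comes from mitotic and meiotic germ cells and from growing oocytes, which are also rich in ribosomes and translation factors. Sperm are made in the last larval stage and stored, and the genes for major sperm proteins are transcribed while spermatocytes form.

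The targeted message went against its label: prx-5 RNA was at 14.9, 21.3 and 23.5 FPKM in prx-5 1, 2 and 3 and at 4.48, 4.73 and 3.5 FPKM in the controls. The groups did not overlap, and the log2 difference was 1.98 ± 0.22 (SE, n = 3 per group; limma with Benjamini-Hochberg adjustment, adjusted p = 0.00867). RNAi is known to lower its target's message, and reads from the fed double-stranded RNA and exchanged labels cannot be told apart here as sources of these values. Each direction of the RNAi comparison below is therefore that of the labels and would turn if the labels were exchanged. RNA of sorb-1 was 11.5, 12.9 and 6.96 FPKM in the controls and 13.6, 14.8 and 25.6 FPKM in the libraries labelled prx-5 (log2 difference 0.72 ± 0.31, adjusted p = 0.232 by limma).

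Library statistics also followed the sets. The FPKM of the loci used summed to 778944, 736804 and 745330 in tag-208 2, prx-5 2 and prx-5 3, and to 825019, 867503 and 866867 in tag-208 1, tag-208 3 and prx-5 1. Loci listed at 0 numbered 206, 131 and 82 in the first set and 406, 431 and 331 in the second. Read depth is unknown, but the steps between low FPKM values gave depths relative to tag-208 1 of 1.1, 1.03 and 1.26 in the first set, against 0.841 for tag-208 3 and 0.768 for prx-5 1. The search for these depths covered ratios up to 1.41-fold either way, and a true ratio outside that range could be returned as a value within it. With that limit on depth, all 3 statistics separated the sets without overlap, and their part in the differences below was not tested. Since FPKM are shares of a library, higher values for some genes lower the rest.

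Among 13337 loci with a value in all 6 libraries and a mean of at least 1 FPKM, 1524 were above in the first set, meaning that each of its 3 libraries exceeded each library of the second set. That is 11.4% of all loci, and 3473 loci, 26.0%, were below by the mirror rule. These shares are the background for the counts of genes that follow, and since the split came from the same values nothing is read from them. Leaving out a library loosens the rule and can only raise such counts, for all loci as for a list. Counts with a library left out are therefore not to be set against these shares. Gaps between the sets were mostly small: the median gap between the nearest libraries was 0.19 on the log2(FPKM + 1) scale in both directions. A gap of at least 1, a doubling of FPKM + 1, was seen at 84 loci above and at 4 below. Loci above had a median mean level of 4.45 FPKM and loci below one of 55.1 FPKM, against 11.8 FPKM over all loci.

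The RNAi label was taken into account by setting each library against the mean of the other 2 libraries of its own group. By that measure tag-208 2 stood opposite to prx-5 1: across the 13337 loci their differences had a Pearson correlation of -0.45, while tag-208 2 correlated at 0.23 with prx-5 2 and at 0.33 with prx-5 3. These are correlations across loci, which are not independent, and differences within a group sum to 0, so a sign in one library fixes part of the others. The plot of differences within each RNAi group shows cuticle collagens and sperm genes at the lower right, where tag-208 2 is high and prx-5 1 low, and germline and ribosomal protein genes at the upper left.

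**Figure D1:**
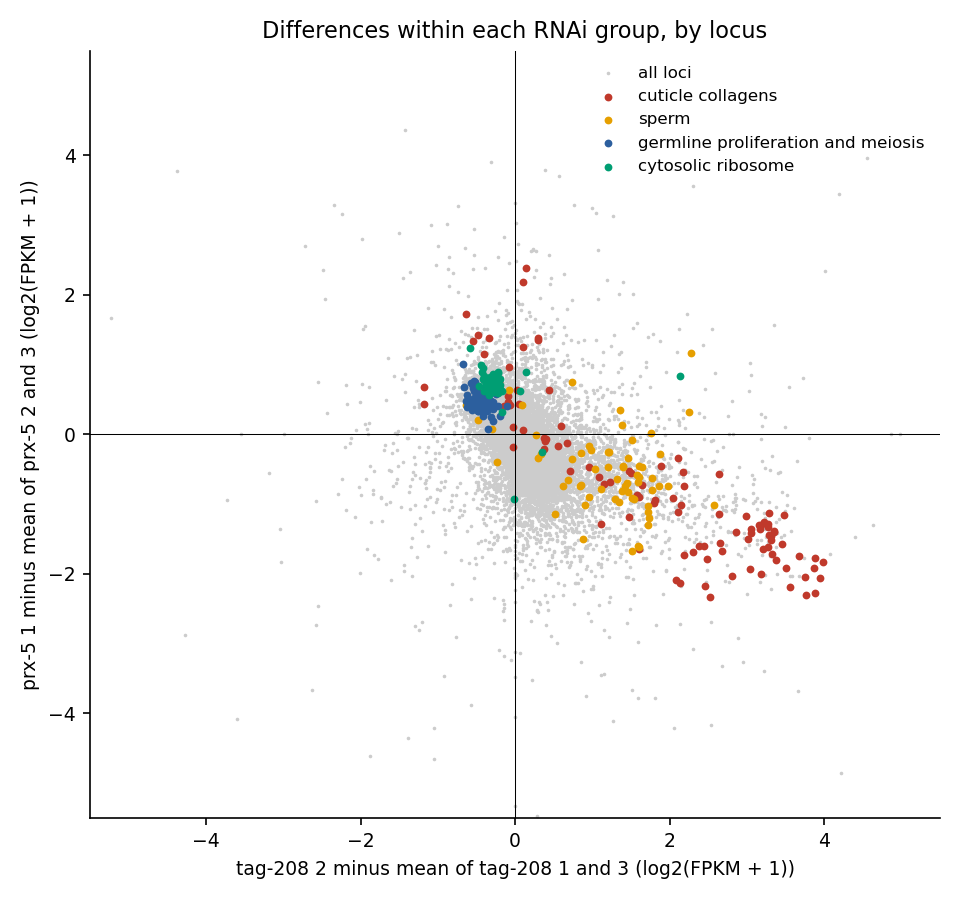
Each point is a locus; the x axis is the log2(FPKM + 1) difference of tag-208 2 from the mean of tag-208 1 and 3, and the y axis that of prx-5 1 from the mean of prx-5 2 and 3, with 4 gene lists coloured. The correlation over all loci is -0.45, and 10 loci lie outside the axes.

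**Figure D2:**
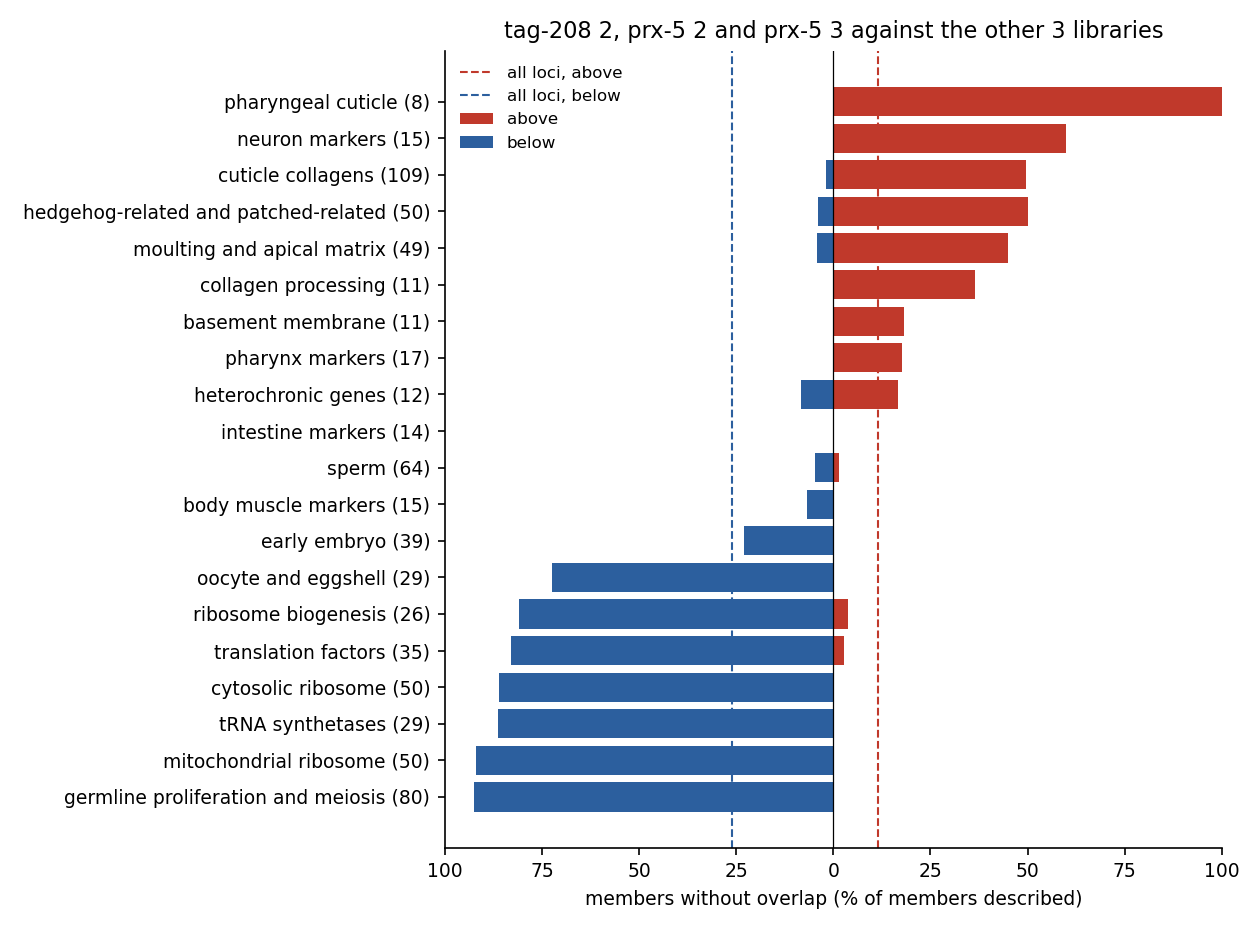
Bars give the share of each list's described members (number in brackets) that were above (red, right) or below (blue, left) in the first set, in percent, and dashed lines give the same shares over all loci, 11.4% above and 26.0% below. Cuticle and neuron lists lie mostly to the right, and germline and translation lists mostly to the left.

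Cuticle collagens were the list with most genes far apart between the sets. Of 176 collagen genes in the annotation, 121 had a locus in the joined tables and 109 passed the minimum of 1 FPKM; 54 of the 109 were above, 2 below and 53 overlapped. Leaving out tag-208 2 or prx-5 1, which brings the split closer to the RNAi labels, raised the members below to 23 and 19. Of the 84 loci with a gap of at least 1 on the log2 scale, 23 were cuticle collagens. Among the 54 members above, the lowest value in the first set was 1.07 to 3.74 times the highest in the second on the FPKM + 1 scale, with a median of 1.85.

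The collagens that give the body its shape, whose mutants are squat (sqt), roll (rol) or are short and fat (dpy), separated the sets in 11 of 15 genes. In what follows, values of the first set are in the order tag-208 2, prx-5 2, prx-5 3 and values of the second in the order tag-208 1, tag-208 3, prx-5 1. sqt-2, on chromosome II at 23331 to 24465, had 46.3, 43.1 and 72.4 FPKM in the first set and 4.59, 0.824 and 10.8 FPKM in the second. rol-8 (II, 7544119 to 7545342) had 50.5, 49.9 and 86.7 FPKM against 5.18, 2.1 and 13.6 FPKM. Both genes were lowest in tag-208 3 and highest in prx-5 3, with prx-5 1 the nearest to the first set.

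rol-6, the collagen gene whose dominant allele is a common transformation marker, had 28.5, 29.8 and 61.5 FPKM in the first set and 2.99, 0.672 and 10.7 FPKM in the second. The second-set order was that of sqt-2 and rol-8, with prx-5 1 above both controls and tag-208 3 lowest. The labelled RNAi comparison did not call rol-6, with a log2 difference of 2.28 ± 1.07 (limma, adjusted p = 0.272), nor dpy-4, with 1.77 ± 1.18 (adjusted p = 0.438).

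Numbered collagens showed the same kind of separation in 41 of 91 genes. col-73 had 152, 123 and 90.9 FPKM in the first set and 19.7, 5.14 and 24.9 FPKM in the second. col-17 had 72.9, 71.7 and 163 FPKM against 7.15, 2.59 and 21 FPKM. The 2 genes below were col-135, with 28, 30.1 and 32.1 FPKM against 62.6, 67.3 and 42.4 FPKM, and col-158, whose gap was 1.11-fold. The gap of col-135 was 1.31-fold.

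Strut collagens, which form the columns that join the layers of the adult cuticle, divided the first set itself. bli-1 had 7.18, 9.38 and 1.61 FPKM in the first set and 0.96, 0.152 and 0.715 FPKM in the second. bli-2 had 25.7, 26.9 and 4.73 FPKM against 3.09, 0.596 and 2.61 FPKM. In both genes prx-5 3 lay close to the second set, unlike in sqt-2 or rol-6. The third strut collagen, bli-6, overlapped, with 109, 77.6 and 19 FPKM against 38.7, 10.3 and 12.1 FPKM.

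Not all shape collagens followed the sets, as seen in genes chosen after their values were known. dpy-17 had 29.6, 37.7 and 44.9 FPKM in the first set and 25, 22.8 and 107 FPKM in the second, and dpy-14 had 25.6, 36.2 and 43.8 FPKM against 22.3, 18.9 and 105 FPKM. For both, prx-5 1 was the highest of all 6 libraries. sqt-3 had 94, 102 and 146 FPKM against 20.7, 21.4 and 96.3 FPKM, so that prx-5 1 lay with the first set.

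The most abundant collagens followed the RNAi label. col-19, a collagen gene used as a marker of the adult epidermis, had 1040, 964 and 992 FPKM in tag-208 1, 2 and 3 and 354, 278 and 250 FPKM in prx-5 1, 2 and 3. The groups did not overlap, with 997 ± 35.9 FPKM in controls and 294 ± 54.1 FPKM in the libraries labelled prx-5 (SD, n = 3 each), and the log2 difference was -1.77 ± 0.19 (limma, adjusted p = 0.00816). Within the controls col-19 hardly set tag-208 2 apart, at -0.07 from the other controls on the log2(FPKM + 1) scale. In its group prx-5 1 was the highest, at 0.43. The 4 collagens with the highest mean level, col-140, col-181, col-20 and col-119, fell in the same comparison, by 1.33, 1.42, 1.9 and 1.13 on the log2 scale (limma, adjusted p = 0.0179, 0.0202, 0.013 and 0.0252). In these 4 genes tag-208 2 was the lowest control, at -0.35 to -0.15 from its group. prx-5 1 was the highest of its group, at 0.36 to 0.75, a direction opposite to that of the collagens above in the first set. col-19 was called in each fit with a library left out, while col-140, col-181 and col-20 were not called without control 3, prx-5 2 or prx-5 3, nor col-140 and col-181 without control 1.

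Over the list, 19 of 109 collagens were called lower in the libraries labelled prx-5 and 0 higher, where the background was 1.2% of 13350 loci called lower and 7.52% called higher. At an unadjusted p under 0.05, 27 were lower and 9 higher. These 19 had a median mean level of 824 FPKM and the 54 collagens above in the first set one of 15.9 FPKM. Among the 22 collagens with a mean of at least 100 FPKM, 17 were called lower in prx-5 and 1 was above in the first set. The calls rest on few libraries: 5, 18 and 3 genes were called lower without controls 1, 2 and 3, and 20, 2 and 2 without prx-5 1, 2 and 3. Without control 2, which is tag-208 2, 11 collagens were also called higher in prx-5.

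Consequently a sum and a median over collagens gave different orders. Summed collagen FPKM was 25470, 25380 and 24240 in the 3 controls and 12110, 9799 and 10500 in the libraries labelled prx-5, a difference by label. The median collagen had 10.3, 44.1 and 3.37 FPKM in tag-208 1, 2 and 3 and 11.3, 29.8 and 24.3 FPKM in prx-5 1, 2 and 3, a difference by set. Within the first set the median log2 difference of prx-5 from control over collagens was -0.63, and within the second it was 0.41, where all loci gave 0.07 in each.

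**Figure D3:**
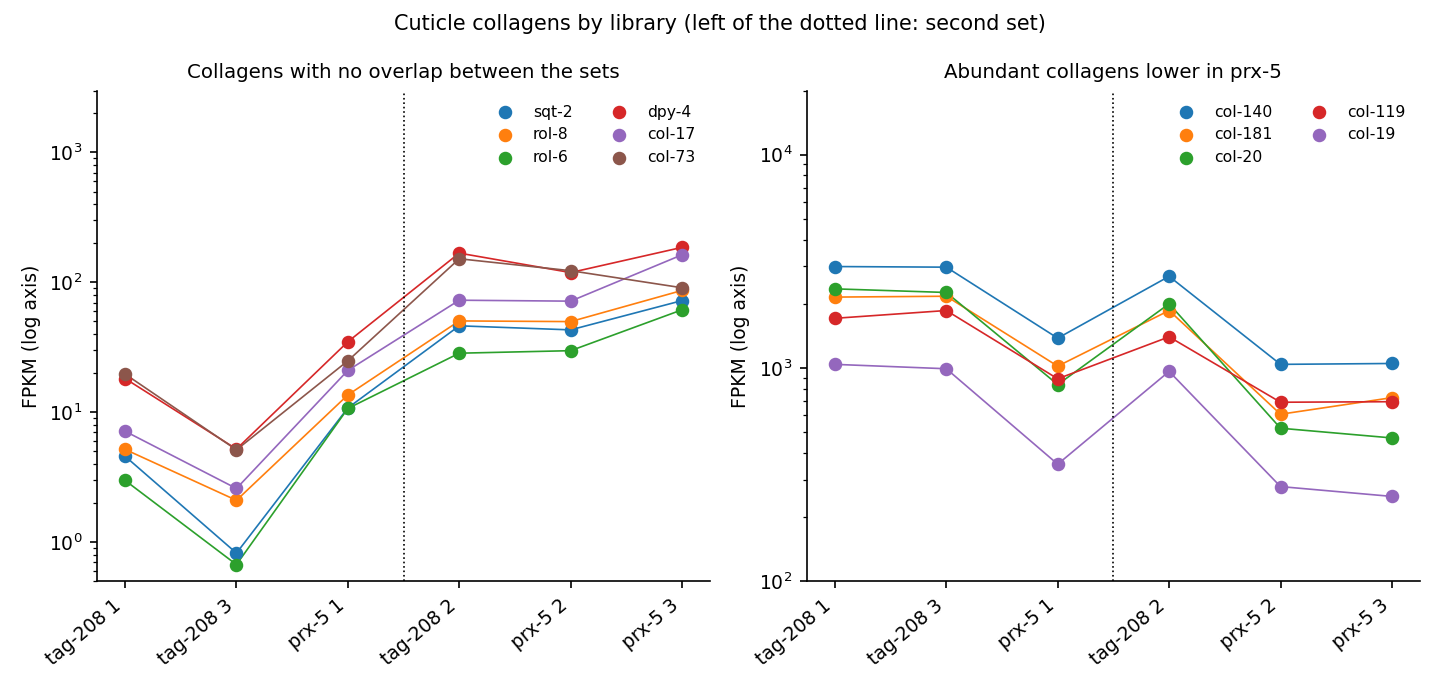
FPKM on a log axis of 6 collagens that separated the sets (left) and of 5 abundant collagens called lower in prx-5 (right), by library, with the second set left of the dotted line and lines only joining one gene's points. On the left all first-set points of a gene lie above its second-set points. On the right tag-208 2 stays with tag-208 1 and 3 as the lowest of them, and prx-5 1 is the highest library labelled prx-5.

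Genes for moulting and the apical matrix were above in 22 and below in 2 of 49 described genes (76 in the annotation). Without tag-208 2 the genes above were 34, in a setting where more of all loci were above too. mlt-10, which is expressed in the epidermis with each moult, had 11.4, 11.9 and 11.2 FPKM in the first set and 3.61, 3.94 and 7.28 FPKM in the second. mlt-8 had 23.9, 25.3 and 28.9 FPKM against 5.45, 3.26 and 14.3 FPKM. For both genes prx-5 1 lay between the other second-set libraries and the first set, and the gaps were 1.47-fold and 1.63-fold on the FPKM + 1 scale.

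Lipocalin-like and zona pellucida-domain genes gave similar orders. lpr-5 had 7.48, 10.1 and 15.3 FPKM in the first set and 1.02, 0.905 and 4.79 FPKM in the second. noah-1, a zona pellucida-domain protein of the pre-cuticle, had 11.1, 13.7 and 18.4 FPKM against 3.91, 3.51 and 10.1 FPKM, so that prx-5 1 nearly reached tag-208 2. The 2 genes below were egg-6, with a gap of 1.2-fold, and nhr-23, a nuclear receptor that drives moulting genes, with one of 1.16-fold; the deposited nhr-23 locus covers 38.9% of the annotated gene. By the RNAi label 3 of 49 genes were called higher by limma, where 7.52% of all loci were, and 0 lower. At an unadjusted p under 0.05, 20 were higher. Under each of the median-ratio, quantile and authors' scalings 0 were called. Leaving out tag-208 2 gave 11 called higher and leaving out prx-5 1 gave 4. Without control 1, control 3, prx-5 2 or prx-5 3, 0 were called.

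Hedgehog-related ligands and patched-related receptors were above in 25 and below in 2 of 50 genes. grl-21, a ground-like ligand, had 12.5, 6.66 and 10.1 FPKM in the first set and 1.83, 0.545 and 1.87 FPKM in the second. grl-16 had 59.7, 35.7 and 48.3 FPKM against 7.9, 2.64 and 17.3 FPKM. Here tag-208 2 was the highest library, unlike in sqt-2, rol-8 and rol-6. The genes below were the receptors ptc-1, which acts in the germline, with a gap of 1.18-fold, and ptr-2, with one of 1.15-fold.

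grd-3 and grd-5 followed the label instead. grd-3 had 199, 206 and 212 FPKM in the controls and 75.2, 23.7 and 33.1 FPKM in the libraries labelled prx-5, a log2 difference of -2.37 ± 0.38 (limma, adjusted p = 0.0179). In grd-5 the log2 difference was -1.73 ± 0.25 (limma, adjusted p = 0.014). Within the list of 50 genes 3 were called lower and 1 higher, where 1.2% of all loci were called lower and 7.52% higher. Without control 3, prx-5 2 or prx-5 3 the calls were 0 in both directions, and adjusted p of grd-3 was then 0.0834, 0.0564 and 0.0768. Without control 1, 1 gene was called lower, and without tag-208 2, 10 were called higher.

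All 8 described genes of the pharyngeal cuticle list, abu genes for glutamine- and asparagine-rich proteins, were above, out of 14 in the annotation. abu-14 had 49.3, 27.4 and 89.5 FPKM in the first set and 4.39, 2.67 and 22.7 FPKM in the second. Requiring a mean of at least 5 FPKM left 4 genes, all of them above. Collagen-processing enzymes moved little: 4 of 11 were above, among them the prolyl hydroxylase dpy-18, with 27, 24.5 and 27.5 FPKM against 18.7, 16.6 and 20.2 FPKM. phy-2, another prolyl hydroxylase subunit, overlapped, with 19, 11.9 and 13 FPKM against 13.1, 10.4 and 10.5 FPKM.

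Among 12 heterochronic genes, which time larval development, 2 were above and 1 below. lin-42, the homologue of period that cycles with the moults, had 7.86, 14.7 and 20.8 FPKM in the first set and 1.35, 2.15 and 5.33 FPKM in the second; its locus covers 56.3% of the gene. lin-41, which is also active in the germline, had 52.8, 69.1 and 54.1 FPKM against 71, 86.7 and 78.1 FPKM, a gap of 1.03-fold. lin-28 overlapped, at 62 to 90.6 FPKM, so the list as a whole did not separate the sets.

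Germline genes were lower in the first set by a small and even amount. Of 80 described genes for germ cell proliferation and meiosis, 74 were below and 0 above, and the 6 that overlapped included the stem cell genes lst-1 and sygl-1. Their gaps ran from 1.02-fold to 1.41-fold on the FPKM + 1 scale, far narrower than those of collagens. In whole worms fewer cells of a type and less RNA per cell cannot be told apart.

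glh-2, a P granule helicase, had 54.1, 51.1 and 40.6 FPKM in the first set and 76.5, 81.5 and 78.2 FPKM in the second. pgl-3, another P granule protein, had 100, 93 and 74.9 FPKM against 145, 154 and 140 FPKM. car-1, an RNA-binding protein with the highest mean level of the list, had 850, 730 and 654 FPKM against 1120, 1320 and 1160 FPKM. In these 3 genes prx-5 3 was the lowest library and tag-208 2 the highest of the first set. glp-1, the Notch receptor of germline stem cells, was nearer to overlap, with 51.3, 63.8 and 52.1 FPKM against 73.5, 69.2 and 73.9 FPKM.

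Set against its own RNAi group, the median germline gene was -0.44 in tag-208 2 and 0.47 in prx-5 1 on the log2(FPKM + 1) scale. tag-208 2 was the lowest control in 77 of 80 genes, where 41.4% of all loci had it lowest. prx-5 1 was the highest of its group in 79 of 80 genes, where 45.2% of all loci had it highest. No gene of the list was called in the labelled comparison by limma, and 0 had an unadjusted p under 0.05. Leaving out prx-5 1 gave 1 call, lower in prx-5.

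Oocyte and eggshell genes were below in 21 and above in 0 of 29. rme-2, the yolk receptor of oocytes, had 357, 343 and 292 FPKM in the first set and 497, 507 and 488 FPKM in the second. chs-1, the chitin synthase of the eggshell, had 94.7, 98.9 and 81.3 FPKM against 136, 134 and 136 FPKM. These genes separated the sets without overlap, whereas perm-4 and perm-2, needed for the eggshell's permeability barrier, overlapped with 1480, 1510 and 1750 FPKM against 1510, 2130 and 1720 FPKM for perm-4. Quantile normalization left 10 genes of the list below.

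Early embryo genes, whose RNA adults carry in the eggs they hold, were below in 9 of 39 and above in 0, near the background of 26.0%. vet-2 had 6.69, 6.42 and 6.69 FPKM in the first set and 11, 9.87 and 10.9 FPKM in the second. The count moved to 16 without tag-208 2, 17 without tag-208 3, 22 under quantile normalization and 2 with a minimum of 5 FPKM. end-1, which specifies the endoderm, overlapped at 0.638 to 1.99 FPKM.

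Sperm genes did not separate the sets, with 1 of 64 above and 3 below. Instead tag-208 2 stood alone: it was the highest control in 57 of 64 genes, where 36.1% of all loci had it highest, and prx-5 1 was the lowest of its group in 40, where 39.2% of all loci had it lowest. Against their own groups the median sperm gene was 1.37 in tag-208 2, 0.69 in prx-5 2, -0.2 in prx-5 3 and -0.59 in prx-5 1 on the log2(FPKM + 1) scale. Thus prx-5 3 fell on the side of the second set. Without it 15 genes were above, but more of all loci were above then too, so nothing is read from that count.

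msp-31, for a major sperm protein, had 71.9, 150 and 30.8 FPKM in tag-208 1, 2 and 3 and 22.7, 47 and 21.3 FPKM in prx-5 1, 2 and 3. gsp-3, a sperm phosphatase, had 3.95, 11.6 and 3.63 FPKM in the controls and 2.52, 4.99 and 2.9 FPKM in prx-5. In each group the library numbered 2 was the highest. Major sperm protein genes are near-identical copies, so how reads were shared among them is uncertain.

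By the RNAi label 0 sperm genes were called by limma and 17 were lower at an unadjusted p under 0.05. The nearest fixed name was msp-3, at 11.4, 28.3 and 11.8 FPKM in the controls and 4.32, 6.64 and 4.25 FPKM in prx-5, a log2 difference of -1.49 ± 0.36 (adjusted p = 0.0512 by limma). With the replicate number as a block, 15 sperm genes were called lower, and the numbers are not shown to pair the libraries. Male markers were near the limit of what was measured: of 11 genes 2 had a locus, mab-3 at 0.305 to 1.04 FPKM and cwp-5 at 0.136 to 1.08 FPKM.

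Of 4 yolk protein genes with a locus, 2 were below in the first set and 2 lacked a library. vit-1 had 370, 76.9 and 121 FPKM in the first set and 837, 404 and 619 FPKM in the second, and vit-4 was likewise below, at a locus that covers 9.35% of the gene. vit-2 had 2330, 1860 and 2000 FPKM in tag-208 1, 2 and 3 and 5130 and 4390 FPKM in prx-5 1 and 2, with prx-5 3 missing and left out of its fit (log2 difference 1.21 ± 0.27, limma, adjusted p = 0.0469). vit-6, with the same library missing, had a log2 difference of 1.37 ± 0.28 (adjusted p = 0.0377 by limma). Neither call held with median-ratio scaling, the authors' constants or the replicate block, nor without control 1, 2 or 3, prx-5 2 or prx-5 3. In those fits the adjusted p ran from 0.0614 to 0.179 for vit-2 and from 0.0511 to 0.152 for vit-6, and without a filter on low values vit-2 had 0.0583. The vitellogenin genes are similar in sequence, which makes the values of single copies uncertain.

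**Figure D4:**
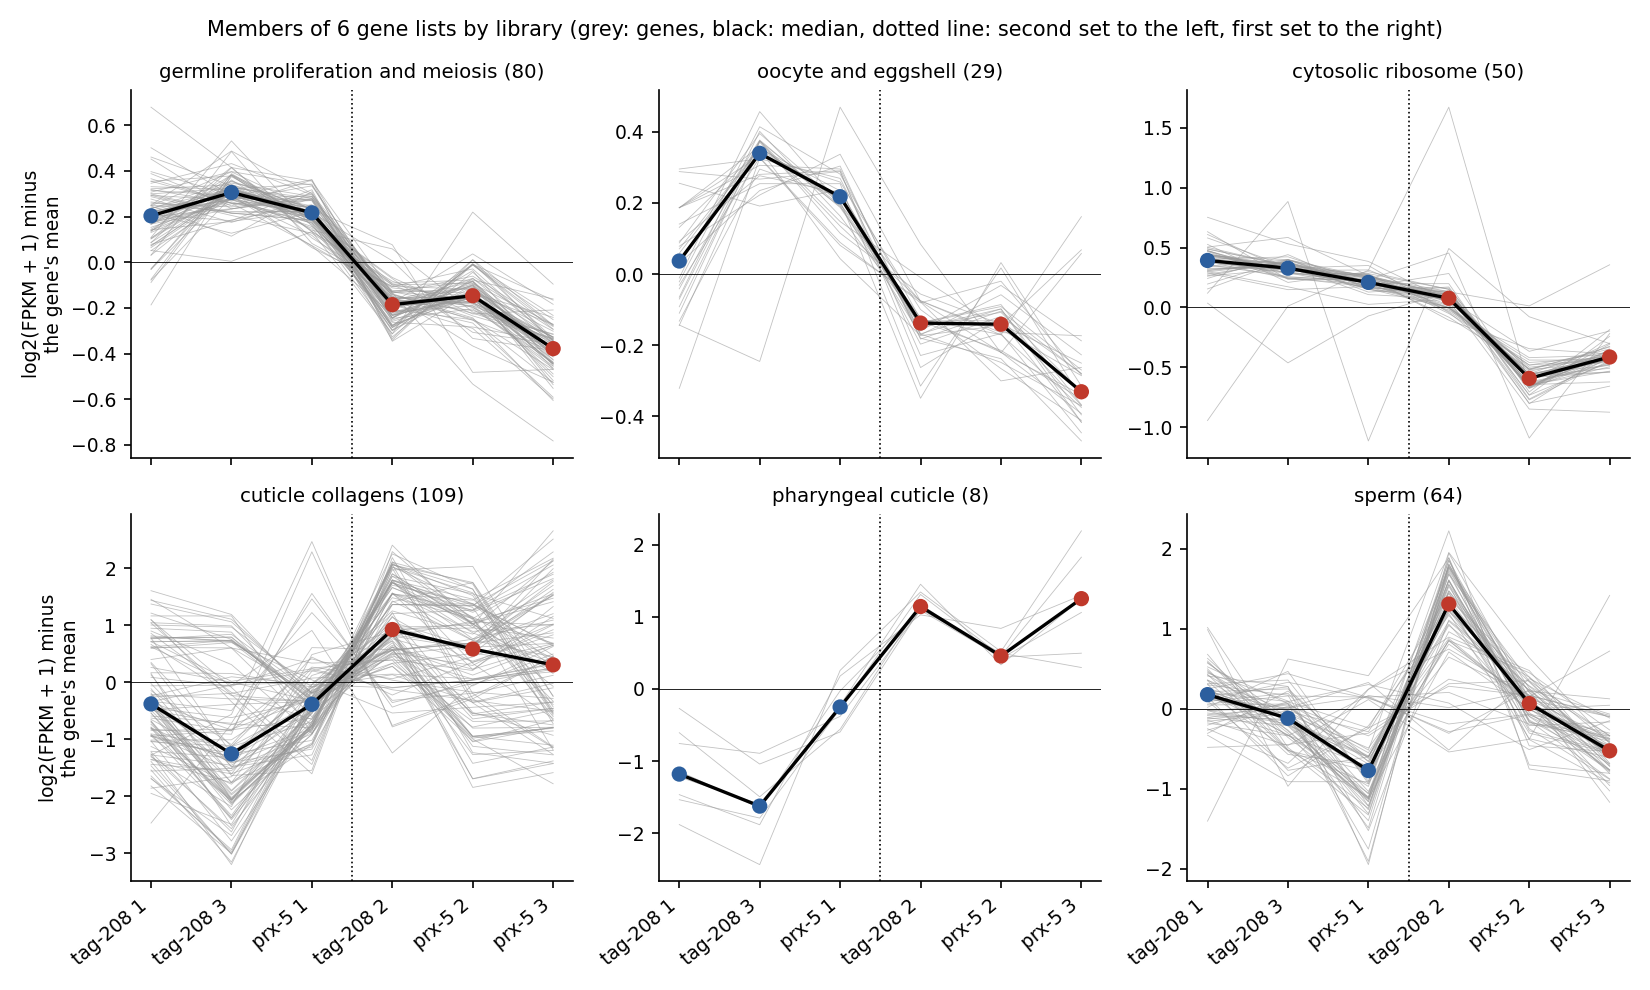
For 6 gene lists, grey lines give each gene's log2(FPKM + 1) minus its mean over the 6 libraries and the black line the list's median, with the second set left of the dotted line. Germline and oocyte medians step down at the line and pharyngeal cuticle medians step up, while the sperm median peaks in tag-208 2 and is lowest in prx-5 1.

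On the FPKM as given, genes of the translation apparatus were also lower in the first set. Under median-ratio scaling most ribosomal protein and ribosome biogenesis genes were not below. Among described genes, 43 of 50 cytosolic ribosomal protein genes, 29 of 35 translation factors, 25 of 29 tRNA synthetases, 21 of 26 ribosome biogenesis genes and 46 of 50 mitochondrial ribosomal protein genes were below. The counts of ribosomal protein and biogenesis genes moved by over 1.5 times with scaling, and those of translation factors and synthetases did not. Under median-ratio scaling 10 cytosolic ribosomal protein genes, 22 mitochondrial ones and 11 biogenesis genes were below, but 28 translation factors and 22 synthetases still were. Quantile normalization left 25 cytosolic ribosomal protein genes, 18 mitochondrial ones, 12 biogenesis genes, 25 translation factors and 22 synthetases below.

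rps-6, a protein of the small subunit, had 998, 690 and 722 FPKM in the first set and 1400, 1290 and 1310 FPKM in the second. rpl-3, of the large subunit, had 1580, 1340 and 1300 FPKM against 2040, 2130 and 2030 FPKM. In the 3 controls alone, tag-208 2 was the lowest in 45 of 50 cytosolic ribosomal genes. rps-21, the most abundant of them, overlapped with 6400, 4310 and 3690 FPKM against 4940, 8400 and 2100 FPKM.

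ife-3, an eIF4E cap-binding protein of the germline, had the widest gap of the translation factors, 1.53-fold, with 216, 185 and 161 FPKM in the first set and 338, 340 and 330 FPKM in the second. eif-2gamma, a subunit of the initiation factor eIF2, had 146, 114 and 107 FPKM against 221, 203 and 201 FPKM. In both genes tag-208 2 was the highest of the first set. The exception in the list was iff-2, for the factor eIF5A, which was above with 140, 212 and 205 FPKM against 133, 95.1 and 133 FPKM. Its germline paralogue iff-1 was below, with 1340, 846 and 772 FPKM against 1910, 1940 and 1640 FPKM.

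Among tRNA synthetases aars-2 had 77.5, 71.8 and 61.1 FPKM in the first set and 109, 108 and 111 FPKM in the second. lpd-6, a ribosome biogenesis factor, had 70.6, 68.5 and 66.7 FPKM against 112, 113 and 107 FPKM, the widest gap of that list at 1.5-fold. fib-1, fibrillarin of the nucleolus, had 1070, 656 and 737 FPKM against 1480, 1280 and 1220 FPKM, so that tag-208 2 came near the second set. The differences were again small and clear of overlap.

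Ribosomal genes were also lower on the median in the libraries labelled prx-5, though the groups overlapped in their sums. Summed cytosolic ribosomal protein FPKM was 127000, 103700 and 123600 in tag-208 1, 2 and 3 and 108700, 64730 and 72740 in prx-5 1, 2 and 3. The median log2 difference of prx-5 from control was -0.6 within the first set and -0.14 within the second. The first set holds only tag-208 2 as a control, and the second only prx-5 1 from the other group. With all 6 libraries 0 of 50 genes were called by limma, 3 were lower at an unadjusted p under 0.05, and without prx-5 1 the calls lower in prx-5 were 29.

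Markers of other tissues in the whole worm were counted beside these lists. Neuron markers were above in 9 of 15 genes and below in 0, for example egl-21, a neuropeptide-processing enzyme, with 45.7, 59 and 76 FPKM in the first set and 29.9, 39.9 and 37.8 FPKM in the second. The gaps of these 9 genes were narrow, from 1.03-fold to 1.22-fold with a median of 1.05-fold. The other 6 overlapped, among them snb-1, the neuron marker of highest mean level, with 176, 240 and 206 FPKM against 201, 242 and 232 FPKM. unc-64 overlapped too and was the 1 neuron marker called higher in the libraries labelled prx-5 (log2 difference 0.78 ± 0.18, limma, adjusted p = 0.0421), where 7.52% of all loci were. Pharynx markers were above in 3 of 17, the muscle myosins myo-1 and myo-2 among them, and myo-2 was highest in prx-5 3 at 58.2 FPKM and in tag-208 2 at 40.8 FPKM. Body muscle markers were below in 1 of 15 and basement membrane genes above in 2 of 11, so neither separated the sets. Without tag-208 2, 12 body muscle markers and 5 basement membrane genes were below. Pharynx markers above were 5, 8 and 9 without tag-208 2, prx-5 1 and prx-5 2. With a library left out more of all loci were above too, as the closing section gives. Counts below can likewise only rise, so nothing is read from either.

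Intestine markers overlapped in 14 of 14 genes. Without tag-208 2, 11 were above, and without prx-5 1, 9 were, in settings where more of all loci were above too. Without tag-208 3, 3 were below. The markers followed the label, with 10 of 14 called higher in the libraries labelled prx-5, where 7.52% of all loci were. asp-1, an intestinal aspartyl protease, had 478, 778 and 485 FPKM in the controls and 1920, 4380 and 4110 FPKM in prx-5 (log2 difference 2.53 ± 0.38, limma, adjusted p = 0.015). Among the next by mean level, act-5 was called (1.22 ± 0.25, limma, adjusted p = 0.0295). cpr-6 and mtl-2 were not called (limma, adjusted p = 0.642 and 0.321). The median log2 difference over the list was 1.17 within the first set and 1.11 within the second. The calls numbered 3 with median-ratio scaling, 6 with quantile normalization and 4 with the authors' constants, 1 without control 1 and 0 without control 3, prx-5 2 or prx-5 3, so they too rest on few libraries. In the body muscle list 3 of 15 genes were called lower, where 1.2% of all loci were. These calls were 9 without prx-5 1, 1 without control 1 and 0 without control 3, prx-5 2 or prx-5 3.

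Across chromosomes, the X held the highest share of loci above and the lowest share below, 17.5% and 7.7% of 2040 loci. Chromosomes I and III had the highest shares below, each 36.9%, and shares above of 8.32% and 7.55%. In C. elegans the X chromosome carries few genes expressed in the germline. The germline list was below almost throughout, and whether this bears on the chromosome shares was not tested. The other chromosomes lay between, with 28.9% below on II, 26.2% on IV and 20.6% on V.

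**Figure D5:**
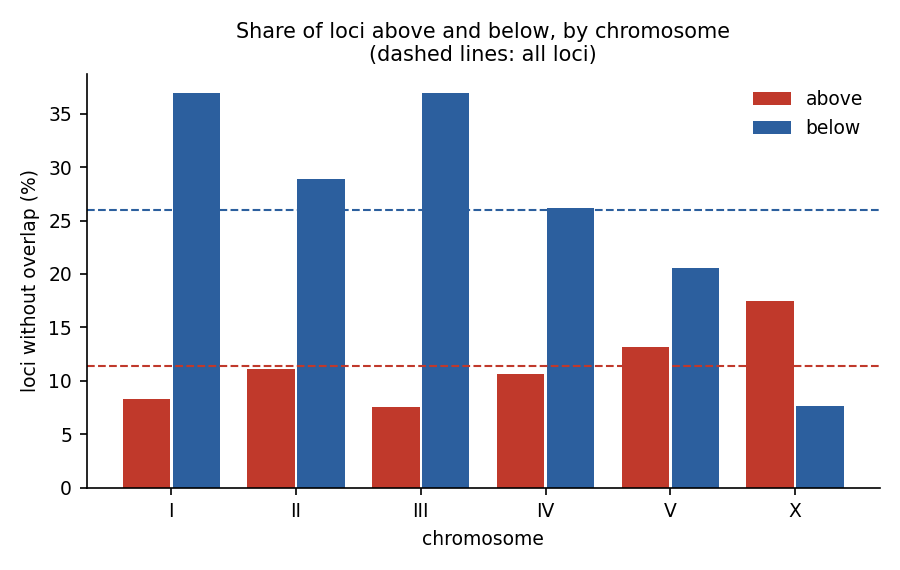
Bars give the share of described loci on each chromosome that were above (red) or below (blue) in the first set, in percent, and dashed lines the shares over all loci. The X is the single chromosome where more loci were above (17.5%) than below (7.7%).

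Of all named protein-coding genes, those with the widest gaps above were srg-31, abf-4 and 6 collagens already given or alike (sqt-2, col-73, col-173, rol-8, dpy-4 and col-17). abf-4, an antibacterial factor-related gene, had 5.3, 4.26 and 5.81 FPKM in the first set and 0.292, 0 and 0.381 FPKM in the second. The locus deposited as srg-31, at 0 in the second set and 17.7, 14.2 and 54.2 FPKM in the first, lies at a place that shares 0% of the annotated gene, so its identity is uncertain. The widest gap below among genes with most of their length covered was clec-190, a C-type lectin, with 18.4, 6.77 and 15 FPKM against 52.6, 45.5 and 55.1 FPKM. pud-3, a small protein gene that is upregulated in daf-2 mutants, followed with 10.5, 2.69 and 11.4 FPKM against 109, 25.8 and 59.2 FPKM.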

How the data were processed

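RNA-seq of 6 libraries was read from 7 tables. Per the file headers, the deposited values were FPKM per locus and library; the submitters' processing notes name CASAVA, Bowtie, Cufflinks and Cuffdiff, and the genome build is not given in the sources used here. Genes were assigned by the identifiers deposited with the loci. Coordinates are those of the files with the start moved by a base. Position served to measure the overlap with the WBcel235 gene and to pick a locus per gene. The authors' comparison table also held group FPKM, used to check the join and to fit a scaling constant for each library. These fitted constants are what the text calls the authors' constants or the authors' scaling.

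Of 15796 rows per table, 14883 had the same gene and locus throughout; 94 were left out because the library values did not give the authors' group values within 2%, leaving 14789. Values that the authors' status column called failed or too deep (29) were set missing. 13337 loci had 6 values and a mean of at least 1 FPKM. The 1 test, prx-5 against control, used limma 3.58.1 in R 4.3.3 on log2(FPKM + 1), with a variance trend. It was two-sided, with Benjamini-Hochberg adjustment over 13350 loci, called under 0.05. It was also run on simulated data with noise independent between loci, so that run does not cover a direction shared by many loci. Fold changes on the log2(FPKM + 1) scale understate low genes. The p-values measure spread between 3 replicates per group.

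The members of the sets and the 22 gene lists were chosen with earlier results of these data known. Named genes were, per list, the 4 of highest mean FPKM and up to 4 per direction with the widest gap, 8 per direction over all loci, and a fixed list; exceptions are stated. Alternatives were other pseudocounts (0.5 and 0.1 FPKM), filters, scalings, a replicate block and leaving out libraries.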

Additional observations from a re-analysis of the deposited data

How the results depend on the processing

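The 1004 loci higher in prx-5 became 479 with median-ratio scaling, 531 with quantile normalization and 522 with the authors' constants, a setting chosen after seeing the data; the loci lower, 160 as reported, were then 177, 239 and 192. The median log2 difference of all loci moved from 0.04 to -0.04, -0.1 and -0.08 under these scalings. Leaving out one library gave 62 to 1451 loci higher and 11 to 385 lower: 274, 757 and 62 higher and 27, 74 and 16 lower without controls 1, 2 and 3, and 1451, 86 and 68 higher and 385, 11 and 13 lower without prx-5 1, 2 and 3. Loci above in the first set, 1524 as reported, were 701 with a mean of at least 5 FPKM and 884 with quantile normalization, and 1856 to 3817 with one library left out, the highest without tag-208 2 and 3063 without prx-5 1. Loci below, 3473, ran from 2502 to 4156 and stayed within 1.5 times in each setting tried. The cause was not tested.

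3 list medians changed sign, all for tag-208 2 against its own group: heterochronic genes went from 0.13 to -0.01 with a mean of at least 5 FPKM and to -0.14 with quantile normalization, and neuron markers from 0.31 to -0.04 with quantile normalization. Of the other 291 list medians recomputed, 284 moved by less than the spread between libraries and 7 by more. Of 210 list counts under other settings 41 moved by over 1.5 times, and of 252 with a library left out, 44 did.

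Same-numbered libraries of the 2 groups correlated at 0.29, 0.23 and -0.12 in their differences from the own group, so the numbers were not taken to pair the libraries. With the replicate block, 1044 loci were higher and 211 lower. tag-208 1 and tag-208 3 correlated best with prx-5 1, and tag-208 2 with prx-5 3, so 1 of 3 controls correlated best with its own number. FPKM carry no depth, so low values could not be given a counting interval.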

Other observations

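Families of genes with at least 15 described members were also counted by the letters of their names, a listing made after the values were seen and given without a test. Among 30 flp genes, which encode FMRFamide-like neuropeptides, 24 were above in the first set and 0 below, with 11.4% and 26.0% as the shares over all loci. Their median log2(FPKM + 1) difference from the own RNAi group was 0.48 in tag-208 2, 0.78 in prx-5 3 and -0.05 in prx-5 2, against -0.51 in tag-208 1, 0.03 in tag-208 3 and -0.72 in prx-5 1, so prx-5 2 and tag-208 3 were near the middle. Other neuropeptide genes of the nlp family were above in 22 of 60, and insulin-like ins genes in 10 of 25, with 0 below in either. Secreted astacin proteases of the nas family, some of which digest the old cuticle, were above in 11 of 20.

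Among families below, nucleoporin genes of the npp family were below in 20 of 23, translation initiation genes named eif in 16 of 17, and cell-cycle genes named cdc in 12 of 15. The taf genes, for factors bound to the TATA-binding protein, were below in 12 of 15. The nhr genes, for nuclear receptors, were above in 10 and below in 4 of 158, with 32 called higher in the libraries labelled prx-5, where 7.52% of all loci were. Of 97 clec genes, 6 were above and 4 below, and 28 were called higher in prx-5.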
